A study of Homo sapiens with 6 samples.

Results

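The nuclear pore complex and the soluble receptors that carry cargo through it were followed at the RNA level in OE-19 cells, an established line from an adenocarcinoma of the esophagogastric junction (AEG). The genes were chosen by symbol among the coding genes of the count table: nucleoporins named NUP with a number, importin alpha genes (*KPNA1* to *KPNA7*), *KPNB1*, importins (IPO), transportins (TNPO), exportins (XPO and *CSE1L*), the Ran genes *RAN*, *RANBP1*, *RANBP2* and *RANGAP1*, and the mRNA export receptor genes *NXF1* and *NXT1*. This gave 54 genes of 19905 coding genes and 60480 genes in all, and each of the 54 passed the filter on low counts.

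RNA-seq of poly(A) RNA compared 3 control libraries (shControl, called Puro in the count table) with 3 libraries after IGF2BP3 knockdown (KD) by short hairpin RNA (shRNA). IGF2BP3 is an RNA-binding protein described as a reader of the m6A mark. All 6 libraries came from OE-19 cells in RPMI1640 medium with fetal bovine serum, so each value describes a single cell line. The sources used here do not say whether the libraries of a group came from separate cultures or whether the 3 KD libraries carry the same shRNA, so p-values measure only the spread between these libraries. An exact permutation test, two-sided, can reach at best p = 0.10 for any gene with 3 libraries against 3, so calls rest on edgeR's quasi-likelihood test over 19778 genes, with Benjamini-Hochberg adjustment and a threshold of 0.05.

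The targeted gene followed its labels. *IGF2BP3* was at 108, 106 and 112 CPM (read counts scaled to the size of the library) in the control libraries and at 14.4, 12.8 and 12.6 CPM in the IGF2BP3 KD libraries, a log2 fold change of -3.03 (standard error 0.06, edgeR adjusted p = 3.1e-10). Total counts per library were 53424071 to 69989087, and mitochondrial genes took 8.67% to 9.06% of them. The summed level of 5 epithelial markers (*EPCAM*, *CDH1*, *KRT8*, *KRT18* and *KRT19*) was 5680 to 5750 CPM in controls and 5600 to 5710 CPM after KD. Within that sum *EPCAM* was called higher, at a log2 fold change of 0.15. *KRT18* (-0.07) and *KRT8* (-0.06) were called lower, and *CDH1* and *KRT19* were not called. Of 5 fibroblast markers, *COL1A2* and *LUM* were at 0 in every library, and the summed level was 20.8 to 24.0 CPM in controls and 29.6 to 34.1 CPM after KD, nearly all of it *COL1A1*. *COL1A1* was called higher, at a log2 fold change of 0.50 (edgeR adjusted p = 0.00078). The 5 leukocyte markers summed to 2470 to 2700 CPM in controls and 2490 to 2560 CPM after KD, nearly all of it *LYZ*, with *CD3E* at 0 throughout, and 4 endothelial markers summed to at most 0.563 CPM. The part of these levels in the results below was not tested.

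As background, the nuclear pore complex is a ring built of many copies of a set of nucleoporins that spans the nuclear envelope. An outer ring and an inner ring form its scaffold, and nucleoporins rich in phenylalanine-glycine repeats fill the channel. Importins and exportins bind cargo and these repeats. The small GTPase Ran, kept in its GTP form inside the nucleus and its GDP form outside, sets the direction of transport, while bulk mRNA leaves through the NXF1-NXT1 receptor. Dividing cells make pores both at the end of mitosis and during interphase.

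Most of these genes were lower after IGF2BP3 KD, by small amounts. Of the 54 genes, 30 fell, 2 rose (*KPNA6* and *NUP43*) and 22 did not pass the test. Across all genes tested, 10.6% were called lower and 9.87% higher in the same edgeR fit, and among coding genes 14.3% were called lower, against 55.6% of the pore and transport genes. Among the 9513 coding genes that averaged 10 CPM or more over the 6 libraries, 19.7% were lower, and of the 51 pore and transport genes at that level 58.8% were. The log2 fold change of the 54 genes ran from -0.59 for *NUP58* to 0.92 for the barely detected *NUP210L*, with a median of -0.17, beside a median of 0.01 over all genes tested and -0.01 over coding genes of at least 10 CPM. In a bulk library, fewer cells with a transcript and less of it per cell cannot be told apart.

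Single libraries show the same shift. All 3 IGF2BP3 KD libraries lay below all 3 control libraries for 35 of the 54 genes, against 17.8% of all genes tested, and above them for 4 genes, against 18.0%. For the remaining 15 the groups overlapped. Among genes averaging 10 CPM or more, the KD libraries lay below for 34 of these 51 genes, against 2694 of 9513 coding genes. At that level they lay above for 4 of the 51, against 2340 of the coding genes. The summed level of the 54 genes was 7490, 7340 and 7430 CPM in the control libraries and 6480, 6480 and 6490 CPM after KD, which is 87.4% of the control mean. By role, the summed level after KD ran from 78.1% of control for the inner ring to 94.3% for the importin alpha genes, and it was 110% for the pair of nucleoporin paralogs.

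**Figure D1:**
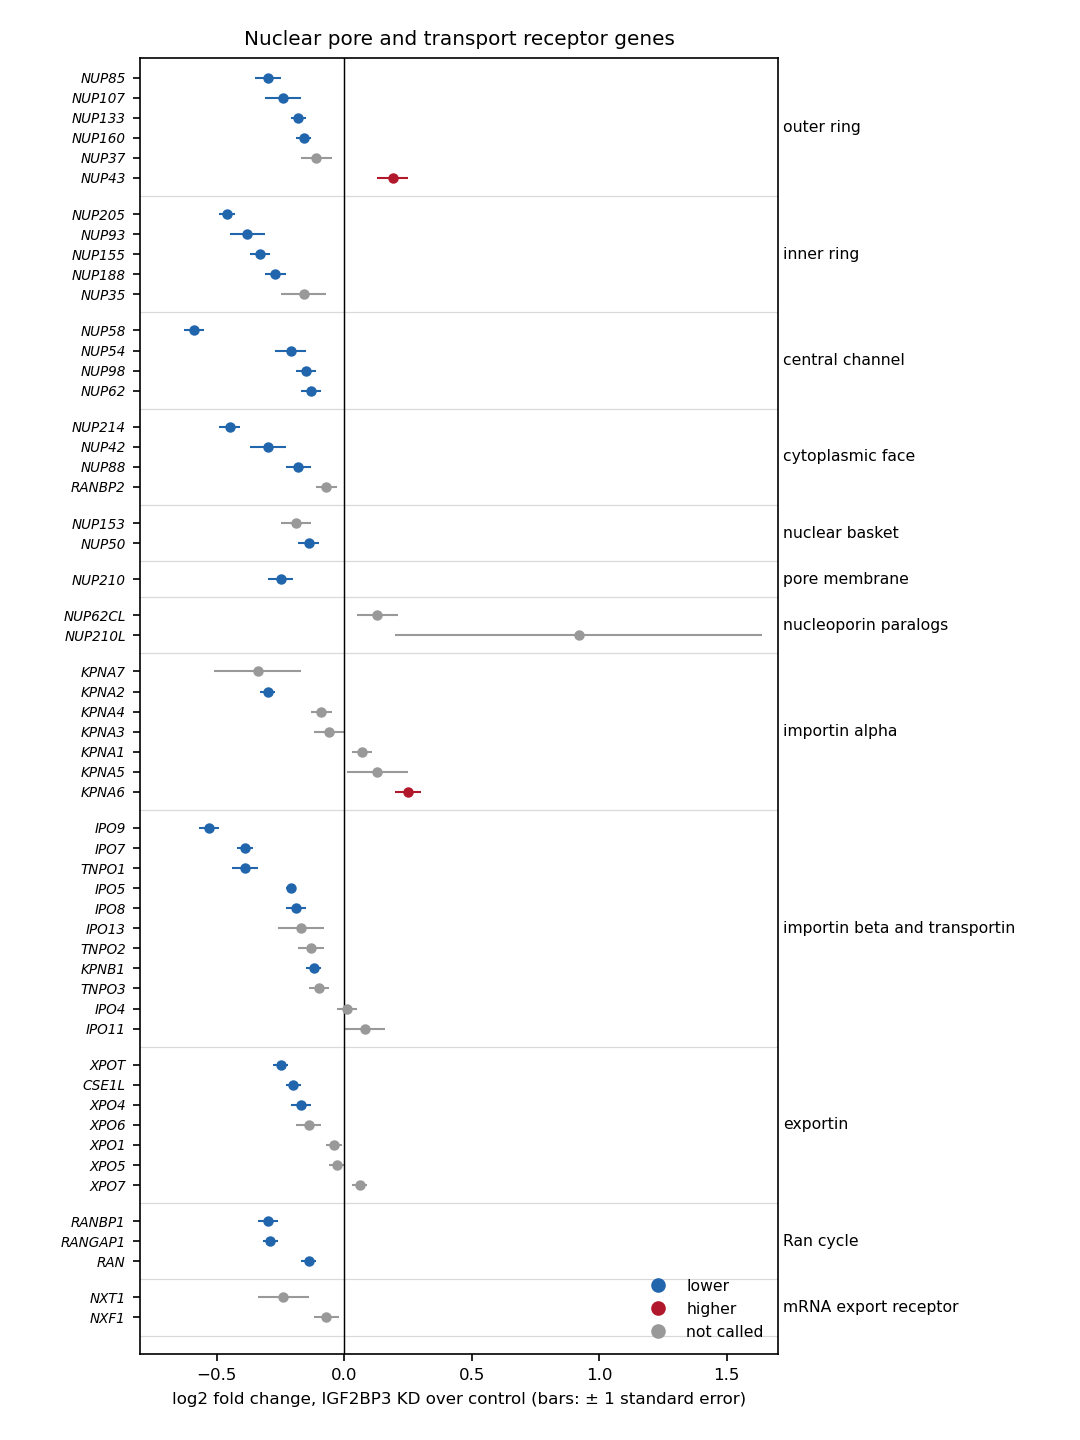
Log2 fold change (IGF2BP3 KD over control, x axis) of each of the 54 genes, grouped by role, with bars of 1 standard error from edgeR, blue for genes called lower, red for higher and grey for not called. Most points lie left of 0, from -0.59 for *NUP58*, and only *NUP43* and *KPNA6* are red, while *NUP210L* at 0.92 has the widest bar.

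**Figure D2:**
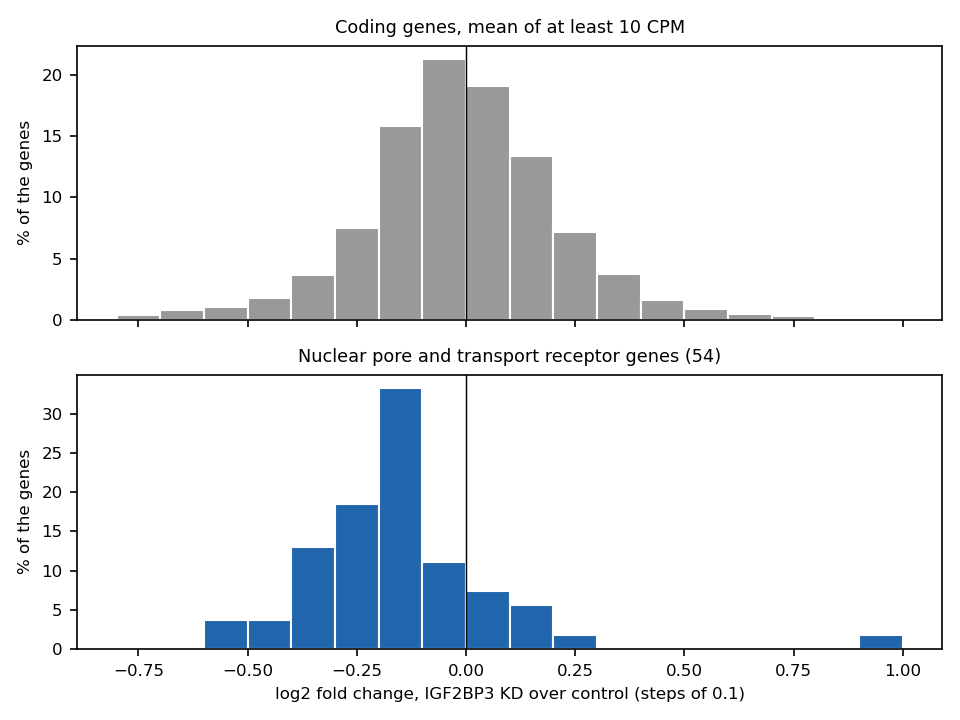
Distribution of log2 fold changes in steps of 0.1, as a percentage of 9513 coding genes that averaged 10 CPM or more (upper panel, of which 0.746% lie outside the axis) and of the 54 pore and transport genes (lower panel). The most filled step is -0.1 to 0 for the coding genes, with 21.3% of them, and -0.2 to -0.1 for the pore and transport genes, with 33.3%.

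Both genes that rose, *KPNA6* and *NUP43*, hold the 7-base word ACACATC in their 3′ UTR. This word and a further one, GATTACT, had been picked from earlier results of these same libraries. Their presence in the genes that rose and their values over all coding genes are thus a description, not a test. Of 1064 coding genes tested with GATTACT in the 3′ UTR, 35.3% were called lower and 6.77% higher, and of 1313 with ACACATC, 10.7% were called lower and 28.4% higher. The words were looked up, on the transcript strand only, in the 3′ UTR of the MANE or canonical transcript of each gene in GENCODE v44. GATTACT occurred in 6 of the 54 genes (11.1%, against 7.72% of 13774 coding genes tested) and ACACATC in 9 (16.7%, against 9.53%). Of those 9, 2 rose (22.2%), beside the 28.4% of coding genes with ACACATC. Among genes averaging 10 CPM or more, 2 of 8 rose (25.0%), beside 36.6% of coding genes with ACACATC. Genes of the 54 that hold a word had longer 3′ UTRs. The median was 1907.5 bases with GATTACT and 5083 with ACACATC, against 1232 with neither. The part of length in these shares was not tested. The sites of the 5 called genes that hold a word are shown, since the 2 genes that rose are among them. Each line gives 30 bases of hg38, 5′ to 3′ on the transcript strand, with the word in capitals.
KPNA6 at base 1953 of the 3′ UTR (chr1:32172836-32172865, + strand): cttctattgctACACATCtccttctggctc
KPNA6 at base 2426 (chr1:32173309-32173338, + strand): gtgtaagacatACACATCctgcttgtccag
KPNA6 at base 5580 (chr1:32176463-32176492, + strand): gttatttatatACACATCcaaatttgaaga
NUP43 (chr6:149726624-149726653, - strand): tgtgggaattaACACATCaatggtggttat
XPO4 (chr13:20778127-20778156, - strand): cccaaataaatACACATCtataactgtttt
NUP214 (chr9:131233629-131233658, + strand): acaaggcgcatGATTACTtgttttatattt
RAN (chr12:130877189-130877218, + strand): ttttctcatacGATTACTatagtccagttt

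The outer ring, or Y complex, is the scaffold that lines both faces of the pore. Of its 6 members named NUP with a number, 4 fell and 1 rose, with a median log2 fold change of -0.17. Its members with other names are in the wider list below. There *SEH1L* was called lower at -0.13, and *SEC13* at 0.07 and *AHCTF1* at -0.02 were not called. *NUP85* (ENSG00000125450, chromosome 17, 75205659 to 75235758) was at 64.9, 67.9 and 65.4 CPM in controls and at 52.4, 54.1 and 54.6 CPM after KD. Its mean went from 66.1 ± 1.62 to 53.7 ± 1.14 CPM (SD, n = 3 each), a log2 fold change of -0.30 (standard error 0.05, edgeR adjusted p = 0.00074). *NUP133* (ENSG00000069248, chromosome 1, 229440259 to 229508341) was at 140, 140 and 143 CPM against 122, 126 and 126 CPM (log2 fold change -0.18, standard error 0.03, edgeR adjusted p = 0.0022). For both genes every KD library lay below every control library. *NUP160* and *NUP107* also fell, by 0.16 and 0.24 on the log2 scale, and *NUP37*, at a log2 fold change of -0.11, was not called.

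*NUP43*, a WD-repeat protein of the same Y complex, went the other way. It was at 43.3, 42.8 and 42.4 CPM in controls and at 53.1, 47.1 and 46.5 CPM after KD, a log2 fold change of 0.19 (standard error 0.06, edgeR adjusted p = 0.045). KD replicate 1 was the highest of the 6 libraries, and the groups did not overlap. The gene (ENSG00000120253, chromosome 6, 149724315 to 149749665) holds ACACATC once, 327 bases into its 3′ UTR, and shares 222 exon bases with *PCMT1* on the opposite strand. Its call sits at the threshold: adjusted p was 0.20 without KD replicate 1, 0.057 without KD replicate 2, and 0.085, 0.12 and 0.13 without control replicates 1, 2 and 3. *NUP107* lost its call without control replicate 2 (0.13), control replicate 3 (0.071), KD replicate 1 (0.13) or KD replicate 3 (0.13).

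The inner ring forms the core scaffold around the channel. Of its 5 members, 4 fell, with a median log2 fold change of -0.33, the lowest median among the role groups of more than 1 gene. *NUP205* (ENSG00000155561, chromosome 7, 135557917 to 135648757), a large scaffold protein, was at 152, 152 and 154 CPM in controls and at 108, 113 and 111 CPM after KD. Its mean went from 153 ± 0.934 to 111 ± 2.41 CPM (SD, n = 3 each), a log2 fold change of -0.46 (standard error 0.03, edgeR adjusted p = 3.2e-06). *NUP155* (ENSG00000113569, chromosome 5, 37288137 to 37371106), which ties the inner ring to the membrane, was at 99.2, 92.5 and 96.7 CPM against 76.6, 74.8 and 77.5 CPM (log2 fold change -0.33, standard error 0.04, edgeR adjusted p = 0.00019). In both, the gap between groups was wider than the range within either. *NUP93*, a linker of the ring, fell by 0.38 on the log2 scale and *NUP188*, a paralog of *NUP205*, by 0.27. *NUP35*, at -0.16, was not called. None of these 4 calls depended on a single library.

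All 4 central channel genes fell. *NUP58* (ENSG00000139496, chromosome 13, 25301524 to 25365390), a repeat nucleoporin of the NUP62 subcomplex, had the lowest log2 fold change of the 54 genes. It was at 186, 174 and 177 CPM in controls and at 121, 122 and 116 CPM after KD, and its mean went from 179 ± 6.19 to 119 ± 3.31 CPM (SD, n = 3 each), a log2 fold change of -0.59 (standard error 0.04, edgeR adjusted p = 1.5e-06). The KD libraries thus held 66.6% of the control level. *NUP98* (ENSG00000110713, chromosome 11, 3671083 to 3797792), whose transcript also encodes the scaffold protein NUP96, was at 227, 218 and 234 CPM against 195, 207 and 210 CPM (log2 fold change -0.15, standard error 0.04, edgeR adjusted p = 0.017). *NUP54* and *NUP62*, the partners of *NUP58*, had log2 fold changes of -0.21 and -0.13.

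The *NUP58* call held when any library was left out, and the other calls of the channel did not. *NUP98* was not called without control replicate 3 (edgeR adjusted p = 0.081) or KD replicate 1 (0.068). *NUP54* kept its call only without control replicate 2, with adjusted p of 0.053 to 0.10 in the other 5 fits. *NUP62* kept its call only without control replicate 1, with 0.073 to 0.16 in the other 5. *NUP54* shares 1814 exon bases with *ART3* on the opposite strand and *NUP62* shares 565 with *ATF5* there and 336 with *IL4I1* on its own strand, and the strand setting of the counting is not given in the sources used here, so both counts are uncertain to that extent.

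On the cytoplasmic face, where filaments take part in mRNA release and in the unloading of exportins, 3 of 4 genes fell. *NUP214* (ENSG00000126883, chromosome 9, 131125573 to 131234663) was at 114, 116 and 118 CPM in controls and at 81.6, 86.8 and 85.1 CPM after KD, a log2 fold change of -0.45 (standard error 0.04, edgeR adjusted p = 1.2e-05). Its 3′ UTR holds GATTACT once, 153 bases after the stop codon. *NUP42* (ENSG00000136243, chromosome 7, 23181841 to 23201011), which works with the mRNA export factor GLE1, was at 27.6, 27.5 and 24.3 CPM against 20.9, 22.1 and 21.3 CPM (log2 fold change -0.30, standard error 0.07, edgeR adjusted p = 0.0092). Neither gene had overlapping groups. *NUP214* shares 2250 exon bases, and *NUP42* 566, with non-coding genes on the opposite strand. *NUP88*, the partner of *NUP214*, had a log2 fold change of -0.18, shares 3786 exon bases with *RABEP1* on the opposite strand, and lost its call without control replicate 1 (0.055), control replicate 3 (0.059), KD replicate 2 (0.068) or KD replicate 3 (0.079). *RANBP2*, the large filament protein that binds Ran, was not called at -0.07, and its reads can be split with the near-identical *RGPD* genes.

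The nuclear basket and the membrane ring are represented by 3 genes. *NUP50* (ENSG00000093000, chromosome 22, 45163925 to 45188017), a basket protein that helps release imported cargo, was at 135, 132 and 135 CPM in controls and at 126, 119 and 120 CPM after KD, a log2 fold change of -0.14 (standard error 0.04, edgeR adjusted p = 0.014). *NUP153* (ENSG00000124789, chromosome 6, 17615035 to 17706925), the anchor of the basket, was at 55.1, 64.8 and 62.8 CPM against 52.2, 53.6 and 54.7 CPM (log2 fold change -0.19, standard error 0.06) and missed the threshold, at an edgeR adjusted p = 0.057. Control replicate 1 was close to the KD libraries, and without it the value was -0.26 with adjusted p = 0.0054. *NUP50* in turn lost its call without control replicate 3 (0.058), KD replicate 2 (0.071) or KD replicate 3 (0.055). *NUP210* (ENSG00000132182, chromosome 3, 13316235 to 13420322), a glycoprotein of the pore membrane, fell from 54.6, 57.9 and 58.3 CPM to 50.2, 46.1 and 47.5 CPM (log2 fold change -0.25, standard error 0.05, edgeR adjusted p = 0.006).

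Over the outer ring, inner ring, channel, cytoplasmic face, basket and membrane ring, 17 of the 22 genes of this set fell (77.3%) and 1 rose. Their median log2 fold change was -0.20. The 22 are not the whole pore, since 9 nucleoporins with other names are in the wider list. Of those 9, 2 fell and 7 were not called, with a median of -0.07. The 2 are 22.2% of the 9, near the 19.7% of coding genes averaging 10 CPM or more. The nucleoporin paralogs, which are not known as regular parts of the pore in most tissues, did not pass the test. *NUP62CL*, an X-linked relative of *NUP62*, was at 13.0, 12.9 and 14.3 CPM in controls and at 14.1, 14.3 and 15.4 CPM after KD, a log2 fold change of 0.13 (standard error 0.08, edgeR adjusted p = 0.35). *NUP210L*, a relative of *NUP210* known from testis, had 10, 13 and 12 reads in controls and 25, 31 and 4 reads after KD. KD replicate 3 was the lowest of the 6 libraries and the other KD libraries the highest, and the log2 fold change was 0.92 with a standard error of 0.72 (edgeR adjusted p = 0.45).

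**Figure D3:**
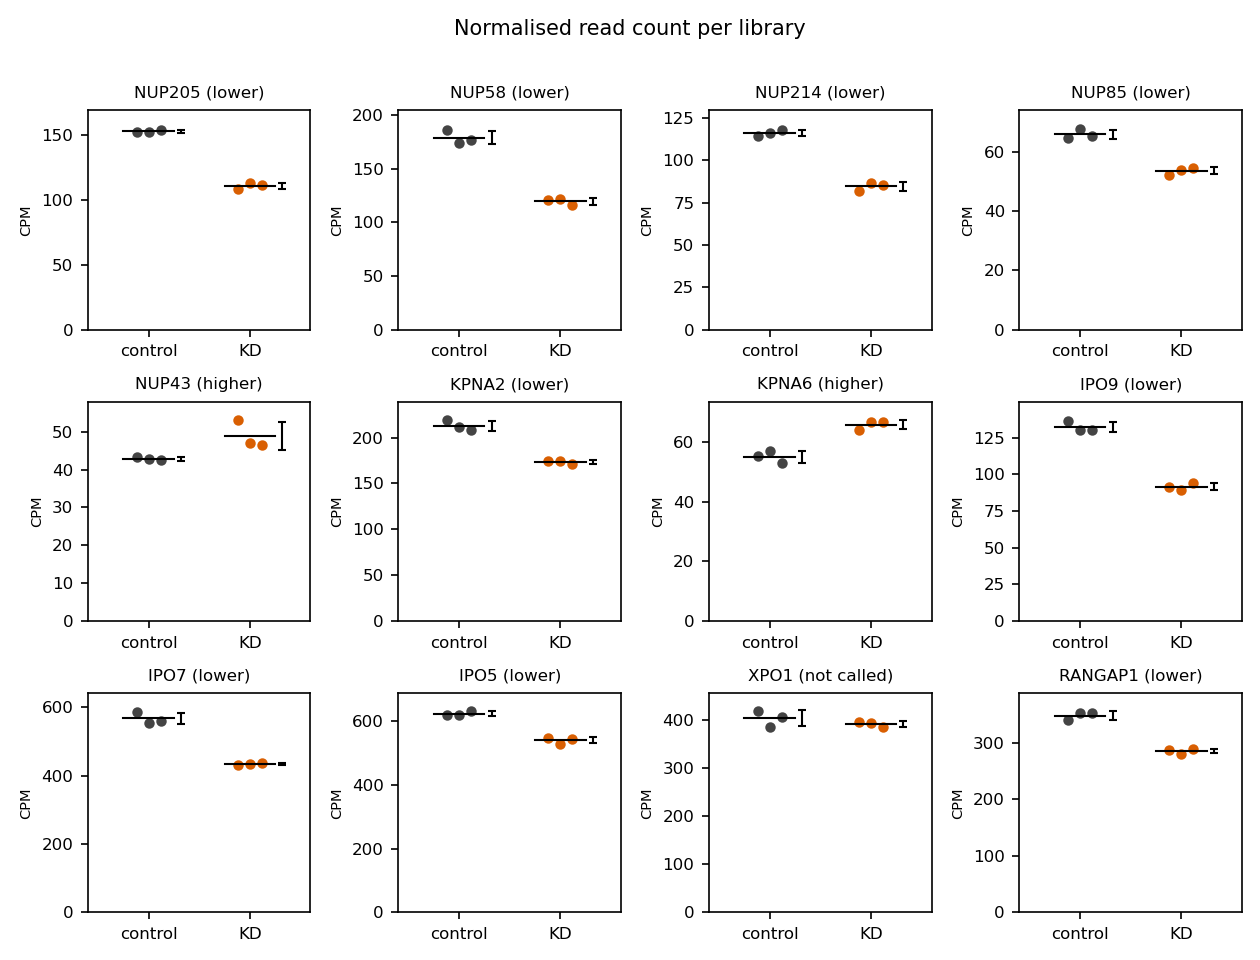
CPM in each library for 12 genes, with dots for the 3 control and the 3 IGF2BP3 KD libraries (KD), a line for the mean and a bar for 1 SD beside the dots, each y axis starting at 0. In the 9 panels called lower the KD dots lie below all control dots, in *NUP43* and *KPNA6* they lie above, and in *XPO1* they overlap.

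Importin alpha proteins are the adaptors that recognise classical nuclear localisation signals. Of the 7 genes, 1 fell, 1 rose and 5 were not called, with a median log2 fold change of -0.06. The share that fell, 14.3%, is no higher than the 14.3% of all coding genes tested. *KPNA2* (ENSG00000182481, chromosome 17, 68035636 to 68047364), the adaptor known to be abundant in proliferating cells, was at 219, 212 and 208 CPM in controls and at 174, 175 and 171 CPM after KD, a log2 fold change of -0.30 (standard error 0.03, edgeR adjusted p = 5.2e-05). *KPNA6* (ENSG00000025800, chromosome 1, 32108056 to 32176563), an adaptor of another subfamily, was at 55.3, 57.1 and 53.1 CPM against 64.1, 66.9 and 66.6 CPM (log2 fold change 0.25, standard error 0.05, edgeR adjusted p = 0.0027). Neither gene's groups overlapped, and both calls held with each library left out. *KPNA6* shares 662 exon bases with a non-coding gene on its own strand, and its count is uncertain to that extent. *KPNA6* holds ACACATC at 3 places, 1953, 2426 and 5580 bases into a 3′ UTR of 5669 bases, and no other of the 54 genes holds either word more than once.

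The other importin alpha genes did not pass the test. *KPNA1*, with ACACATC at base 153 of its 3′ UTR, had a log2 fold change of 0.07 (edgeR adjusted p = 0.20), and its KD libraries lay above its controls. *KPNA4* and *KPNA5*, the only 2 genes of the 54 that hold both words, had values of -0.09 (adjusted p = 0.14) and 0.13 (0.53), and *KPNA3*, with neither word, had -0.06 (0.53). *KPNA7*, at 2.44 to 3.62 CPM in all libraries, had a log2 fold change of -0.34 with a standard error of 0.17 (edgeR adjusted p = 0.19). Its KD libraries lay below its controls, and the gene was not called.

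Scaled to the length of the MANE or canonical transcript, *KPNA2* was the most abundant importin alpha gene, with a mean of 108 CPM per kilobase in controls and 87.6 after KD. It made up 64.2%, 64.4% and 64.2% of the family's CPM per kilobase in the control libraries and 59.3%, 58.8% and 59.7% after KD. The share of *KPNA6* went from 4.36%, 4.66% and 4.41% to 5.89%, 6.05% and 6.25%, and that of *KPNA1* from 9.54%, 10.2% and 9.87% to 12%, 11.6% and 11.7%. For all 3 genes the libraries of the groups did not overlap. These shares sum to 100%, so a lower share of *KPNA2* raises the others. With the length of all annotated exons in place of the transcript, the *KPNA2* share was 35.7% to 36.0% in controls and 30.6% to 31.4% after KD, lower in level and with the same direction.

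**Figure D4:**
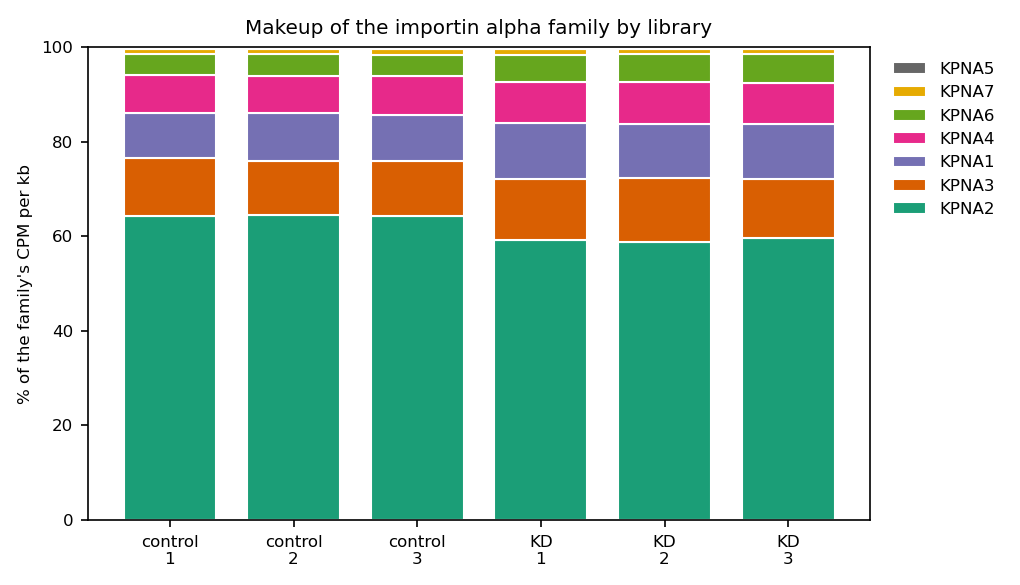
Share of each importin alpha gene in the family's summed CPM per kilobase of transcript (y axis, %), stacked for each of the 3 control and 3 IGF2BP3 KD libraries (KD). The *KPNA2* block is 64.2% to 64.4% in controls and 58.8% to 59.7% after KD, and the *KPNA6* block widens from 4.36% to 4.66% to 5.89% to 6.25%.

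Importin beta proteins and transportins bind cargo, or an importin alpha with its cargo, and pass through the channel. Of the 11 genes, 6 fell (54.5%) and none rose, with 5 not called and a median log2 fold change of -0.17. *IPO9* (ENSG00000198700, chromosome 1, 201829149 to 201884291), an importer of histones H2A and H2B and of actin, was at 136, 130 and 130 CPM in controls and at 91.6, 89.4 and 93.7 CPM after KD, a log2 fold change of -0.53 (standard error 0.04, edgeR adjusted p = 2.8e-06). *IPO7* (ENSG00000205339, chromosome 11, 9384652 to 9448127), an importer of ribosomal proteins, was at 586, 554 and 561 CPM against 432, 434 and 437 CPM (log2 fold change -0.39, standard error 0.03, edgeR adjusted p = 3e-06). The KD libraries held 69.3% of the control level of *IPO9* and 76.5% of that of *IPO7*.

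*IPO5* (ENSG00000065150, chromosome 13, 97953658 to 98024296), another importer of ribosomal proteins, had the highest level of this family per kilobase of transcript, 104 CPM in controls, but not per kilobase of all annotated exons, where it made up 22.8% of the family in controls against 27.8% for *IPO7*. It was at 617, 619 and 631 CPM in controls and at 546, 529 and 544 CPM after KD, a log2 fold change of -0.21 (standard error 0.02, edgeR adjusted p = 0.00011). *TNPO1*, the carrier of hnRNP proteins, fell by 0.39 on the log2 scale and *IPO8*, a relative of *IPO7*, by 0.19. *KPNB1*, the importin beta that works with importin alpha, fell by 0.12, and this call was lost without KD replicate 2 (edgeR adjusted p = 0.062). The 5 genes not called were *TNPO2*, a close relative of *TNPO1*, at -0.13, *TNPO3*, the carrier of SR splicing factors, at -0.10, *IPO13*, which both imports and exports, at -0.17, *IPO11*, an importer of ubiquitin-conjugating enzymes, at 0.08 and the histone importer *IPO4* at 0.01. In *TNPO2* and *TNPO3* the KD libraries lay below all controls, and *IPO13* passed only without control replicate 1, at an adjusted p of 0.047. *IPO4* shares 3375 exon bases with another coding gene on its strand, and its count is uncertain.

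Exportins take proteins and RNAs out of the nucleus with RanGTP. Of the 7 genes, 3 fell (42.9%) and none rose, with a median log2 fold change of -0.14. *XPOT* (ENSG00000184575, chromosome 12, 64404392 to 64451125), the tRNA exporter, was at 226, 216 and 228 CPM in controls and at 189, 185 and 190 CPM after KD, a log2 fold change of -0.25 (standard error 0.03, edgeR adjusted p = 0.00021). *CSE1L* (ENSG00000124207, chromosome 20, 49046246 to 49096960), which returns importin alpha to the cytoplasm, was at 235, 230 and 232 CPM against 204, 203 and 201 CPM (log2 fold change -0.20, standard error 0.03, edgeR adjusted p = 0.00038). In both genes the KD libraries were tightly grouped below the controls. *XPO4*, the exporter of eIF5A, fell by 0.17 on the log2 scale and holds ACACATC in its 3′ UTR.

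*XPO1* (ENSG00000082898, chromosome 2, 61476032 to 61538741), the general exporter of proteins with leucine-rich export signals, had the highest level among exportins per kilobase of transcript, 81.0 CPM in controls, but not per kilobase of all annotated exons, where it made up 9.32% of the family in controls against 33.6% for *CSE1L*. It was at 419, 386 and 407 CPM in controls and at 397, 393 and 386 CPM after KD. The groups overlapped, and the log2 fold change was -0.04 (standard error 0.03, edgeR adjusted p = 0.40). The pre-miRNA exporter *XPO5* was also not called, at -0.03, nor was the actin exporter *XPO6*, at -0.14, whose adjusted p was 0.08 and fell to 0.02 without control replicate 1. *XPO7*, an exportin with a broad set of cargoes, was at 147 to 149 CPM in controls and 152 to 156 CPM after KD, without overlap, at a log2 fold change of 0.06 (edgeR adjusted p = 0.20).

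All 3 genes grouped here as the Ran cycle fell. *RANBP2*, grouped with the cytoplasmic face above, was not called. *RANGAP1* (ENSG00000100401, chromosome 22, 41244779 to 41286187), which makes Ran hydrolyse GTP in the cytoplasm, was at 340, 352 and 353 CPM in controls and at 287, 281 and 289 CPM after KD, a log2 fold change of -0.29 (standard error 0.03, edgeR adjusted p = 2.9e-05). *RANBP1* (ENSG00000099901, chromosome 22, 20115938 to 20127355), its helper, was at 192, 197 and 201 CPM against 152, 162 and 165 CPM (log2 fold change -0.30, standard error 0.04, edgeR adjusted p = 0.00019). *RAN* itself, with GATTACT at base 1274 of its 3′ UTR, fell by 0.14 on the log2 scale (standard error 0.03, edgeR adjusted p = 0.0029). Each KD library was below each control library for all 3. Per kilobase of transcript, the level of *RANBP1* was 161 CPM in controls and 131 CPM after KD. Processed pseudogenes of *RAN*, *RANBP1* and *KPNA2* had at most 46 reads in any library.

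The mRNA export receptor did not pass the test. *NXT1* (ENSG00000132661, chromosome 20, 23350791 to 23354771) was at 24.0, 26.4 and 26.9 CPM in controls and at 18.5, 22.6 and 24.4 CPM after KD, a log2 fold change of -0.24 (standard error 0.10, edgeR adjusted p = 0.11). KD replicate 3 was above control replicate 1, and KD replicate 1 was the lowest. *NXF1* (ENSG00000162231, chromosome 11, 62792123 to 62806302) was at 49.8, 52.1 and 48.9 CPM against 46.1, 47.6 and 50.5 CPM (log2 fold change -0.07, standard error 0.05, edgeR adjusted p = 0.47). Its groups overlapped.

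Most of the genes that fell hold neither word. Of the 54 genes, 41 hold neither GATTACT nor ACACATC, and 27 of these fell and none rose, with a median log2 fold change of -0.20. Among 11604 coding genes tested with neither word, 13.2% fell and 12% rose, with a median of 0.00. Those 11604 include genes of low level. Among the 7893 that averaged 10 CPM or more, 18.1% fell and 15.1% rose, with a median of -0.01. At that level 39 of the pore and transport genes hold neither word, and 69.2% of them fell. Of the 6 genes with GATTACT (*NUP214*, *RAN*, *TNPO2*, *KPNA4*, *KPNA5* and *IPO11*), 2 fell and none rose. Of the 9 with ACACATC (*KPNA6*, *NUP43*, *KPNA1*, *KPNA4*, *KPNA5*, *NUP62CL*, *XPO4*, *XPO5* and *XPO7*), 1 fell and 2 rose. The sequences printed above are matches of letters, and nothing here tests what binds them. Across the 54 genes, the log2 fold change had a Pearson correlation of -0.0486 and a Spearman correlation of 0.0763 with the log2 length of the 3′ UTR, over the same 6 libraries. With the log2 exon length these were -0.147 and -0.161. With the log2 mean CPM they were -0.497 and -0.165, with the barely detected *NUP210L* among the genes. The part of level in these fold changes was not tested.

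**Figure D5:**
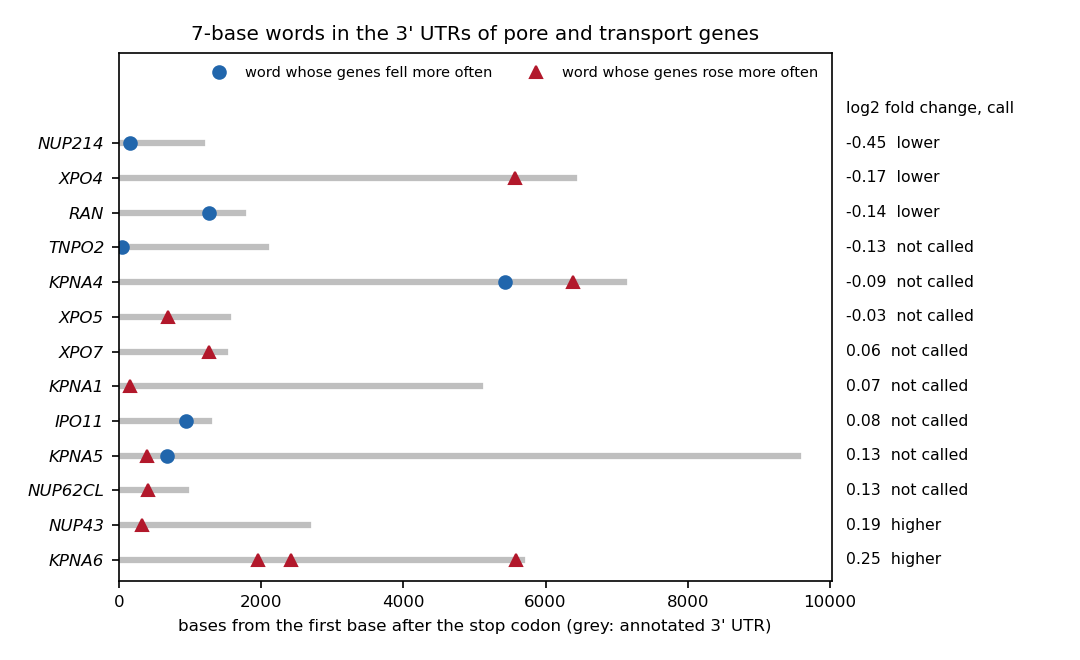
Position of the 7-base words along the annotated 3′ UTR (grey line, x axis in bases after the stop codon) for the 13 genes that hold either, ordered by log2 fold change, which stands at the right with the call. Circles mark GATTACT and triangles ACACATC, and the 2 genes at the bottom, *NUP43* at 0.19 and *KPNA6* at 0.25, are the 2 that rose.

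Among genes around the pore, more were called lower than higher. A wider list of 57 genes held nucleoporins with other names, further Ran regulators, mRNA export factors, transport adaptors and genes of the nuclear lamina and envelope. Of the 56 tested, 18 fell and 4 rose, with 34 not called and a median log2 fold change of -0.08. The 18 are 32.1% of those tested, beside the 10.6% of all genes tested and 19.7% of coding genes averaging 10 CPM or more given above. The 4 of 56 that rose stand beside 9.87% of all genes tested. Among the 9513 coding genes averaging 10 CPM or more, 1575 rose. By role, 2 of 9 other nucleoporins fell (*TPR* and *SEH1L*), as did 2 of 4 Ran regulators (*RCC1*, the exchange factor of Ran, and *RANBP3*), 8 of 24 mRNA export factors, 2 of 7 adaptors and carriers, and 4 of 12 lamina and envelope genes.

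*THOC2*, the scaffold of the THO complex that couples transcription to export, was at 254, 238 and 236 CPM in controls and at 164, 162 and 163 CPM after KD, a log2 fold change of -0.57 (standard error 0.03, edgeR adjusted p = 1.1e-06). *NMD3*, the adaptor through which XPO1 exports the large ribosomal subunit, was at 81.8, 76.2 and 72.2 CPM against 115, 116 and 118 CPM (log2 fold change 0.60, standard error 0.05, edgeR adjusted p = 7.5e-06). It thus rose while the call of *XPO1* did not pass. *BANF1*, a chromatin bridge of the reforming envelope, was at 65.5, 70.7 and 69.7 CPM against 52.8, 51.7 and 51.4 CPM (log2 fold change -0.40, standard error 0.05, edgeR adjusted p = 0.00013). *POLDIP3*, a partner of the export complex TREX, was at 89.1, 90.9 and 92.7 CPM against 68.8, 72.9 and 72.4 CPM (log2 fold change -0.35, standard error 0.04, edgeR adjusted p = 0.00014), but shares 3326 of its 3650 exon bases with another gene on its strand. *SYNE2*, a giant linker of the outer nuclear membrane, was at 373, 366 and 375 CPM against 315, 311 and 327 CPM (log2 fold change -0.23, standard error 0.03, edgeR adjusted p = 0.00019). Besides *NMD3*, the genes that rose were the envelope genes *SYNE1*, *SUN2* and *LMNA*, with log2 fold changes of 0.64, 0.13 and 0.07.

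Which of the falls held up is known for each gene. Of the 30 called lower, 23 kept the call with each of the 6 libraries left out in turn and under every other alternative tried, and 7 lost it in at least 1 of those fits. The 7 were the *NUP107*, *NUP98*, *NUP54*, *NUP62*, *NUP88*, *NUP50* and *KPNB1* calls described above. Exon overlap with another annotated gene was found for 25 of the 54 genes, and of the 29 without any, 16 fell.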

How the data were processed

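The 54 genes, the gene lists and the 3′ UTR words were chosen with earlier results of these data known. Poly(A) RNA libraries (NEBNext Ultra Directional kit) were sequenced as paired reads. Per the submitters' processing notes, the authors used fastp, HISAT2 with hg38 and featureCounts. Tool versions, annotation release and strand setting are not given in the sources used here. The deposited values are raw counts per gene, with no normalization. Columns were assigned to libraries by name, and 132 rows that repeat 44 identifiers were dropped.

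The test was edgeR's quasi-likelihood test (version 4.0.16, R 4.3.3) without a block, on TMM-scaled counts of genes kept by filterByExpr (min.count 10, min.total.count 15), with Benjamini-Hochberg adjustment over 19778 genes. DESeq2 1.42.0, other scalings, filters, thresholds, coding genes only, a replicate block and each library left out were alternatives. CPM use TMM-scaled library sizes. Positions, transcripts and 3′ UTRs come from GENCODE v44. Total counts of 53424071 to 69989087 per library set the precision of low genes. A chi-square per degree of freedom was 9.86 to 17.6 within groups and 46.3 to 58.2 between them, so no library repeats another.

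Every gene of the set is named. Values in each library are given for the 2 genes with the smallest p per role, for genes called higher, for the gene of the highest level per transcript length in each receptor family, and for the 5 called genes with the smallest p of the wider list.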

Additional observations from a re-analysis of the deposited data

How the results depend on the processing

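The count of pore and transport genes called lower, 30 in the report, was 34 with DESeq2, 30 with RLE scaling, 29 with total counts only, 27 with no low-count filter, 32 with at least 10 counts in every library, 31 among coding genes only, 23 at an adjusted p under 0.01, and 24 to 31 with each library left out. DESeq2 kept all 30 and added *NUP153*, *TNPO2*, *TNPO3* and *XPO6*. The count called higher, 2 in the report, was 1 at an adjusted p under 0.01, 1 with RLE scaling and 1 with no low-count filter, where *NUP43* was lost, and 1 to 2 with each library left out. The median log2 fold change stayed between -0.18 and -0.15, and that of *IGF2BP3* between -3.10 and -3.0. In the wider list, 4 genes were called higher in the report. That count was 2 at an adjusted p under 0.01, 2 with no low-count filter and 2 to 4 with each library left out. It was 5 with total counts only and 5 among coding genes only. Genes of that list called lower were 16 to 22 under all of these. Over all genes, 1314 were lower and 1098 higher at an adjusted p under 0.01, against 2088 and 1953 in the report. In the 13 refits at the 0.05 threshold, counting the block below, no called gene of the 54 changed direction, 8 lost the call in at least 1 refit (35 losses in all) and 6 that were not called gained it in at least 1 (12 gains).

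Same-numbered libraries did not deviate together (correlations of -0.00173, -0.0315 and 0.00915 for numbers 1, 2 and 3). No pairing by number was thus seen, though such values cannot exclude that same-numbered libraries were handled together. With the replicate block, 32 genes were called lower, the 30 of the report plus *NUP153* and *NXT1*, and 2 higher. Genes near the floor, such as *NUP210L*, are limited by depth.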
